A study of Mus musculus with 13 samples.

Results

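The 10 genes followed here are genes of serotonin synthesis and of hormone granules in single cells of the mouse small intestine: Tph1, Ddc, Gch1, Tac1, Chga, Chgb, Cpe, Pam, Ptprn2 and Scgn. They were chosen by symbol, not by a measured value, and are 10 of the 16204 genes in the files. All 10 were present in the files, and cells with at least 3000 transcripts were used, which left 892 of 1248 cell barcodes. Each of 13 libraries held 96 barcodes, of which 50 to 87 were kept, with a median of 5412 to 14458 transcripts per kept cell. No 2 kept cells held identical values.

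Every library came from Lgr5-CreERT2 mice on the C57Bl6/J strain that were crossed to a Rosa26LSL-YFP reporter, so all groups, controls included, carried both alleles. Cre is driven by the stem cell gene Lgr5 and becomes active after tamoxifen, after which YFP marks the stem cells and their offspring; these marked cells are called traced. The groups were traced cells at 5 days (5 libraries), traced CD24+ cells at 3 weeks (1), non-traced CD24+ cells at 3 weeks (1), traced CD24+ cells at 8 weeks (3), traced cells at 8 weeks without the CD24 gate (1) and non-traced CD24+ control cells at 8 weeks (2). CD24 is a surface protein used for sorting. The labels give neither the age of the mice nor the tamoxifen dose, nor whether replicate libraries came from separate animals, so p-values below measure the spread between these libraries, which may be technical. The other groups differ from the CD24+ groups of 8 weeks in gate, time or sex of the mice and enter no test. The library labelled 3-week non-traced CD24+ carries the cells of a set named with YFP and without CD24 in the combined table, against its label, and enters no test. Replicate 4 of the 5-day libraries stands apart: 41 of its 68 kept cells formed most of a cluster that stayed unnamed. These 41 cells lay among the barcodes numbered 49 to 93. The cluster had 11 of 12 goblet markers raised, with Ghrl, Fabp1 and Apoa1 also among its leading genes. It got no name because 97.6% of its cells came from this library.

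Enterochromaffin cells are the serotonin-producing endocrine cells of the gut lining. Tph1 encodes tryptophan hydroxylase, the rate-limiting enzyme of serotonin synthesis outside the brain, Ddc the decarboxylase that completes the pathway, and Gch1 the first enzyme in the synthesis of the cofactor that tryptophan hydroxylase needs. Like other endocrine cells they store their products in dense-core granules, which form with chromogranins (Chga, Chgb), receive peptide precursors such as the substance P precursor Tac1, and trim and amidate peptides with the enzymes encoded by Cpe and Pam. Ptprn2 encodes a protein of the granule membrane and Scgn a calcium-binding protein, secretagogin.

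In the GENCODE M21 annotation (GRCm38, the build the submitters name as mm10) Tph1 (ENSMUSG00000040046) lies at chr7:46644641-46672537 on the minus strand, Tac1 at chr6:7554879-7565834 on the plus strand and Chga at chr12:102554969-102565028 on the plus strand. Chgb lies at chr2:132781278-132795079 on the plus strand, Ddc at chr11:11814101-11898144 on the minus strand and Gch1 at chr14:47153895-47189413 on the minus strand. Cpe (chr8:64592542-64693054, minus strand), Pam (chr1:97795114-98095646, minus strand), Ptprn2 (chr12:116485720-117276849, plus strand) and Scgn (chr13:23953456-23991214, minus strand) complete the set. Of the 10, Chga and Ptprn2 share a chromosome.

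The promoters of Tph1 and Chga, whose transcripts went together from cell to cell, and of Scgn, which went against them, are shown as the 250 bases before each annotated start (RefSeq, GRCm38.p6, read 5′ to 3′ on the strand of the gene). Capitals mark the E-box CANNTG, a letter pattern to which basic helix-loop-helix factors bind.
Tph1, outer start, chr7:46672538-46672787, minus strand: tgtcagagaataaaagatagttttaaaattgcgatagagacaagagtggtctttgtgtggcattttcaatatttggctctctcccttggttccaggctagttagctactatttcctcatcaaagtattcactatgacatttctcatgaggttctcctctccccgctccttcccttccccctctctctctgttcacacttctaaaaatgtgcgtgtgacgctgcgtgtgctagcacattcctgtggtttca
Tph1, inner start, chr7:46667378-46667627, minus strand: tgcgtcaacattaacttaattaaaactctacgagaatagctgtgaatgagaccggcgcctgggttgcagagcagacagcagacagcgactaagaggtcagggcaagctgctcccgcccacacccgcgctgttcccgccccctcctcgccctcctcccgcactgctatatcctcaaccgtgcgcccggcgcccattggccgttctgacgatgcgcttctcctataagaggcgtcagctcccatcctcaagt
Chga, chr12:102554691-102554940, plus strand: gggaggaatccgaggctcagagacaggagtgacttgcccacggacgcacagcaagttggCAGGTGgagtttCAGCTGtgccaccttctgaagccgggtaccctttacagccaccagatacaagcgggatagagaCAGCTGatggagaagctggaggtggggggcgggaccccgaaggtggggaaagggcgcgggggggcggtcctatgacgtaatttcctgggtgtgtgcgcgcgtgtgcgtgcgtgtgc
Scgn, chr13:23991215-23991464, minus strand: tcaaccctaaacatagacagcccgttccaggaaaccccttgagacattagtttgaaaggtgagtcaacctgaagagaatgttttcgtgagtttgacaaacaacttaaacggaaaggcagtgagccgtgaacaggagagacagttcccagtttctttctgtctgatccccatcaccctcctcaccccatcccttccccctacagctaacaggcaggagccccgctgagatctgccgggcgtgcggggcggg
RefSeq windows were matched for 9 of the 10 genes (12 windows). Searched on both strands were the E-box CANNTG, the cAMP response element TGACGTCA and the TATA box TATAAA (an E-box can share bases with the end of a cAMP response element). Over 32851 such windows of all genes, 66.2% held an E-box, 1.55% the cAMP response element and 12.4% the TATA box. Chga had 3 E-boxes, while neither Tph1 window nor the Scgn window held any of the 3 patterns. The Tac1 window had 2 E-boxes and that of Chgb had 1 E-box and 1 cAMP response element; 182 and 250 of their 250 bases lie in annotated exons, so they are not printed. A match or its absence in these windows describes letters only.

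Cells were grouped into classes by clustering without the 10 genes, and a class is called "like" a cell type where lists of other marker genes gave the name. The enteroendocrine-like class held 109 of the 892 cells (12.2%). It carried most of the transcripts of each of the 10 genes: 94% of those of Tph1, 93.7% of Tac1, 95.6% of Chga, 94.4% of Chgb, 93.8% of Scgn, 90.1% of Cpe, 87% of Pam, 78.3% of Gch1, 74.1% of Ptprn2 and 57.6% of Ddc. Ddc and Ptprn2 thus had the largest shares outside the class among the 10. These are levels in cells that were clustered from the same libraries and are given as a description, without a test.

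The serotonin synthesis genes differed from each other in how widely they were detected. To compare cells at 1 depth, each was thinned to 3000 transcripts, which left 108 enteroendocrine-like cells. Tph1 was detected in 32 of these cells (29.6%), Gch1 in 71.3% and Ddc in 99 cells (91.7%). Summed over the class in all libraries, Tph1 stood at 647 counts per 1000000 transcripts (CPM; 95% exact Poisson interval 595 to 703, which covers counting error only). Without thinning, 33 of 109 cells held Tph1, with 1 to 55 molecular barcodes and a median of 14. In stem-like and enterocyte-like cells Tph1 had 0 counts, and 0 counts allow up to 4.15 CPM in the enterocyte-like cells. Among Paneth-like cells, the antimicrobial cells at the crypt base, 7 of 84 held Tph1 and none more than 2 barcodes. The unnamed cells, 41 of 42 from 5-day replicate 4, held it in 15 cells with at most 4 barcodes.

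Ddc was the member with the widest range of classes. It stood at 978 CPM in enteroendocrine-like cells and at 218 CPM (189 to 251) in enterocyte-like cells, the absorptive cells, where 40 of 73 thinned cells (54.8%) held it. Stem-like cells had 63.5 and proliferating-like cells 73.7 CPM of Ddc. Gch1 stood at 472 CPM in the enteroendocrine-like class.

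Of the peptide and granin genes, Tac1 was detected in 42.6% of thinned enteroendocrine-like cells (2408 CPM), Chga in 66.7% (3986 CPM) and Chgb in 85.2% (14574 CPM). Chgb was also present at a low level elsewhere: 95.6 CPM in tuft-like cells (20.1% of thinned cells), 86.2 CPM in goblet-like cells and 82 CPM (68.4 to 97.5) in Paneth-like cells (32.1%). Tuft cells are chemosensory and goblet cells mucus-producing.

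The processing enzymes and the remaining granule genes were spread over most endocrine cells. Cpe was detected in 82.4% of thinned enteroendocrine-like cells, Pam in 59.3%, Ptprn2 in 88% and Scgn in 59.3%, with class levels of 1567, 459, 1252 and 745 CPM. Ptprn2 had a second, lower level in Paneth-like cells: 138 CPM (120 to 158), with transcripts in 38 of 81 thinned cells (46.9%). It was detected in 16.9% of goblet-like cells (63.2 CPM) and in 5.76% of tuft-like cells (15.4 CPM). Each of the other 8 genes stood at 16.1 CPM or less in Paneth-like cells.

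**Figure D1:**
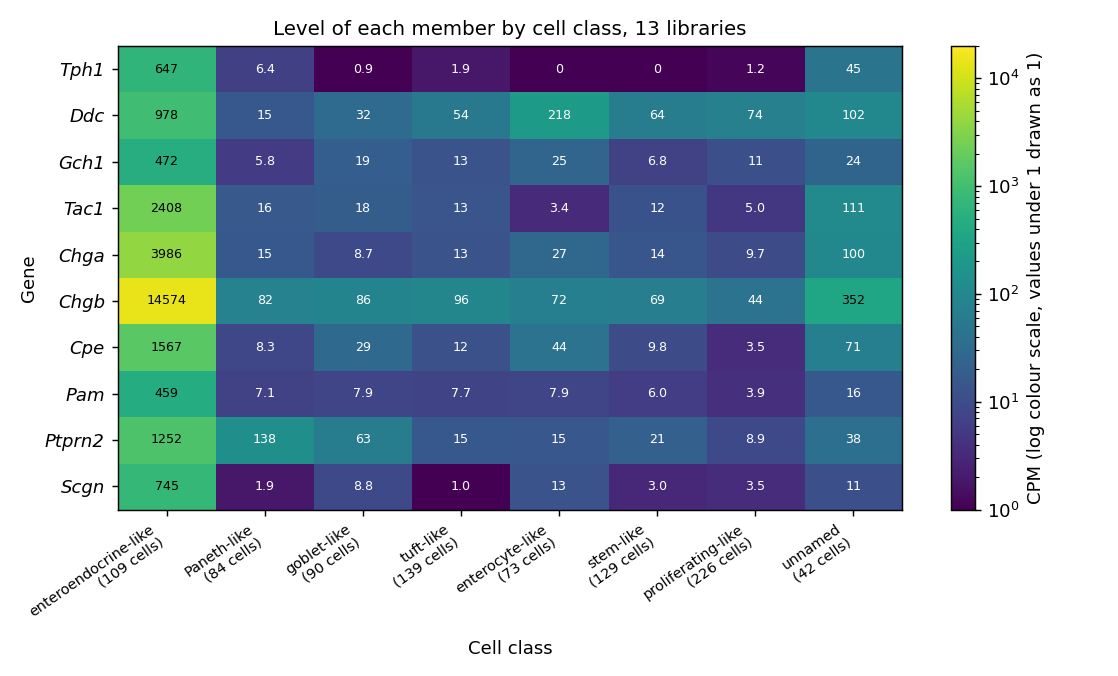
Heat map of the level of each of the 10 genes (CPM, number in each cell, colour on a log scale) in each class of cells, summed over all libraries. All 10 genes are highest in the enteroendocrine-like class, Ddc is next in enterocyte-like cells (218 CPM) and Ptprn2 in Paneth-like cells (138 CPM).

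The enteroendocrine-like class consisted of 2 clusters. The larger (68 cells) was led by the endocrine transcription factor genes Neurod1, Insm1, Nkx2-2 and Neurog3, and 32 of its cells held Tph1. The smaller (41 cells) was led by the hormone genes Gip, Cck and Sct and by Isl1, and 1 of its cells held Tph1. In the 5 CD24+ libraries of 8 weeks the larger cluster (57 cells) had 926 CPM of Tph1 and the smaller (31 cells) 8.9. Tac1 stood at 3234 against 103 CPM, Chga at 6169 against 315 and Chgb at 18380 against 7084. The order was opposite for Cpe (746 against 3299 CPM), Scgn (391 against 1425), Ptprn2 (847 against 2160) and Pam (345 against 731). Ddc (870 against 1127 CPM) and Gch1 (452 against 526) differed least.

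Detection of Tph1 divided the other 9 genes in the same 5 libraries. The 88 enteroendocrine-like cells held 27 with Tph1 and 61 without, at similar depth (medians of 6735 and 6787 transcripts). Tac1 stood at 6375 CPM in cells with Tph1 and 70.1 in cells without, Chga at 11638 and 474 (24.5-fold) and Chgb at 34346 and 4433 (7.75-fold). Ddc (1197 and 810 CPM, 1.48-fold) and Gch1 (603 and 403 CPM, 1.5-fold) differed less. Scgn was lower in cells with Tph1, at 60.6 against 1050 CPM, a ratio of 0.0577. Cpe (771 and 1912 CPM, a ratio of 0.403) and Ptprn2 (1027 and 1355, 0.757) were lower too, and Pam was nearly level (430 and 477, 0.901). The cells were divided by 1 of the 10 genes after its values were seen, so no test was made.

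The 5 libraries gave these differences separately. Chga in cells with and without Tph1 stood at 7505 and 280 CPM in traced replicate 1, 19840 and 796 in replicate 2 and 16243 and 615 in replicate 3. In the non-traced libraries it stood at 3924 and 464 CPM and at 21984 and 315 CPM. Cells with Tph1 were thus the higher in 5 of 5 libraries, and their lowest value exceeded the highest value without Tph1. Tac1 stood at 5059 and 27.6, 5345 and 85.5, and 6236 and 0 CPM in the traced libraries and at 9507 and 66.2 and 14962 and 227 CPM in the non-traced. Scgn was the reverse: 24.2 and 639, 40.6 and 1218, and 21.6 and 1147 CPM in the traced libraries, and 220 and 1083 and 216 and 1399 CPM in the non-traced. Chgb, Ddc and Gch1 were also higher with Tph1 in 5 of 5 libraries and Cpe lower in 5 of 5. Ptprn2 was lower in 4 of 5 and Pam higher in 3 and lower in 2. The traced libraries supplied 9, 7 and 6 cells with Tph1 and the non-traced 3 and 2. How many of all genes go 1 way in 5 of 5 libraries was not counted.

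**Figure D2:**
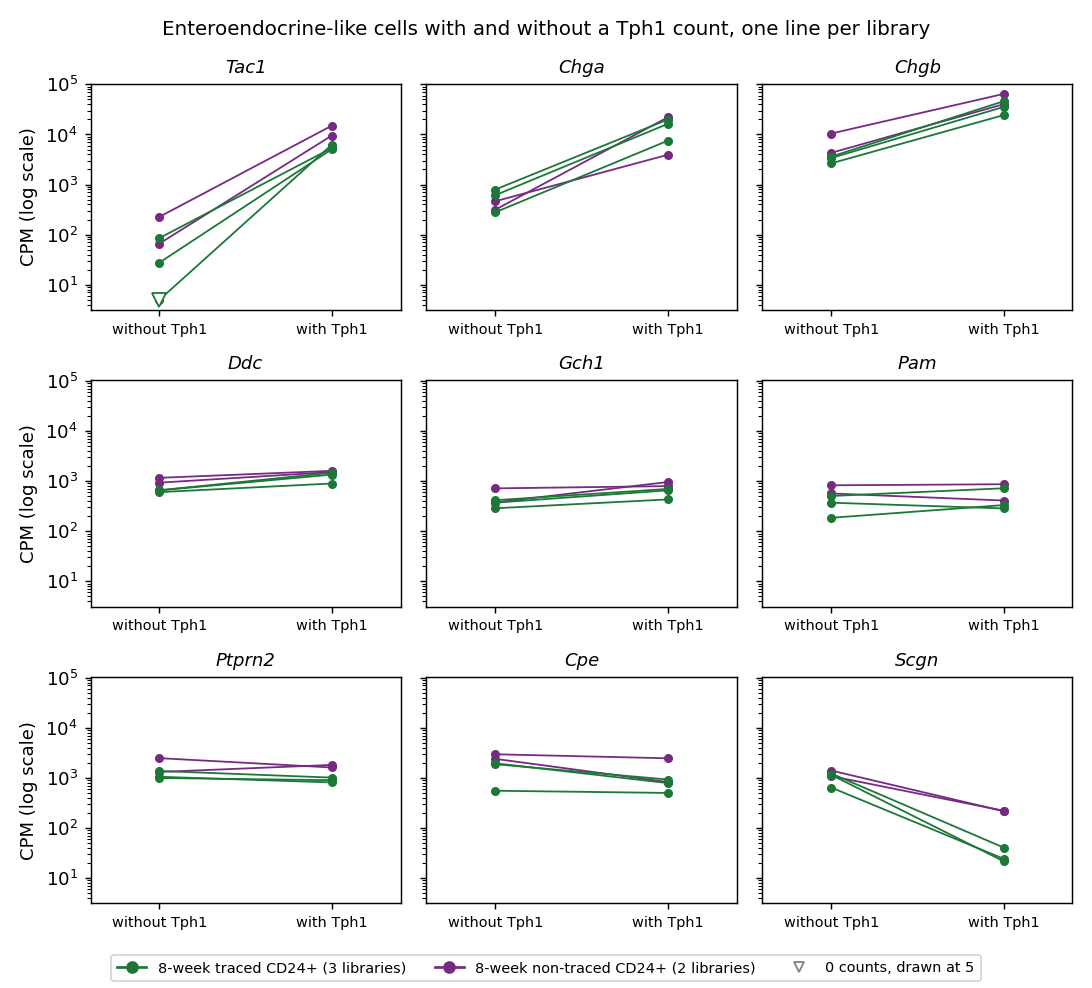
Level (CPM, log axis, 0 drawn at 5) of the other 9 genes in enteroendocrine-like cells with and without Tph1; each line joins the 2 values of 1 of the 5 CD24+ libraries of 8 weeks. Chga, Chgb and Tac1 lie higher with Tph1 in every library, Scgn and Cpe lower.

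Pairs of genes were counted in single cells. Of 88 thinned cells, 26 held Tph1; 24 of these held Tac1, 25 Chga, 26 Chgb, 25 Ddc and 23 Gch1, but 5 held Scgn. Scgn was found in 54 of the 88 cells. All of Tph1, Tac1 and Chga were found in 23 cells and none of the 3 in 23 others. Tac1 occurred without Tph1 in 14 cells and Ddc without Tph1 in 56. The median cell held 7 of the 10 genes, and 2 cells held all 10.

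On the scale of log2(transcripts per 10000 + 1), Pearson's r over the 88 cells was 0.90 for Tph1 and Tac1, 0.80 for Tph1 and Chga and 0.67 for Tph1 and Chgb. It was -0.61 for Tph1 and Scgn and -0.59 for Tac1 and Scgn. Cpe, Pam and Ptprn2 formed another group, with 0.76 for Cpe and Ptprn2, 0.67 for Cpe and Pam and 0.66 for Pam and Ptprn2. The cells share 5 libraries and differ in depth, so r is a description. Of 8694 genes, those whose pattern was most like that of Tph1 were Tac1 (0.90), Lmx1a (0.88), Rab3c (0.85), Gstt1 (0.82) and Chga (0.80). For Chga they were Tph1 (0.80), Rab3c (0.79), Lmx1a (0.76), Tpbg (0.75) and Trpa1 (0.75). Lmx1a encodes a transcription factor of enterochromaffin cells and Trpa1 an ion channel that senses irritants.

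Set against the name enterochromaffin, Tac1, Chga and Chgb had higher levels in the cells with Tph1, whereas Scgn and Cpe had lower ones. Detection alone separated them less: of the thinned cells without Tph1, 22.6% held Tac1, 56.5% Chga, 79% Chgb, 62.9% Gch1 and 90.3% Ddc.

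**Figure D3:**
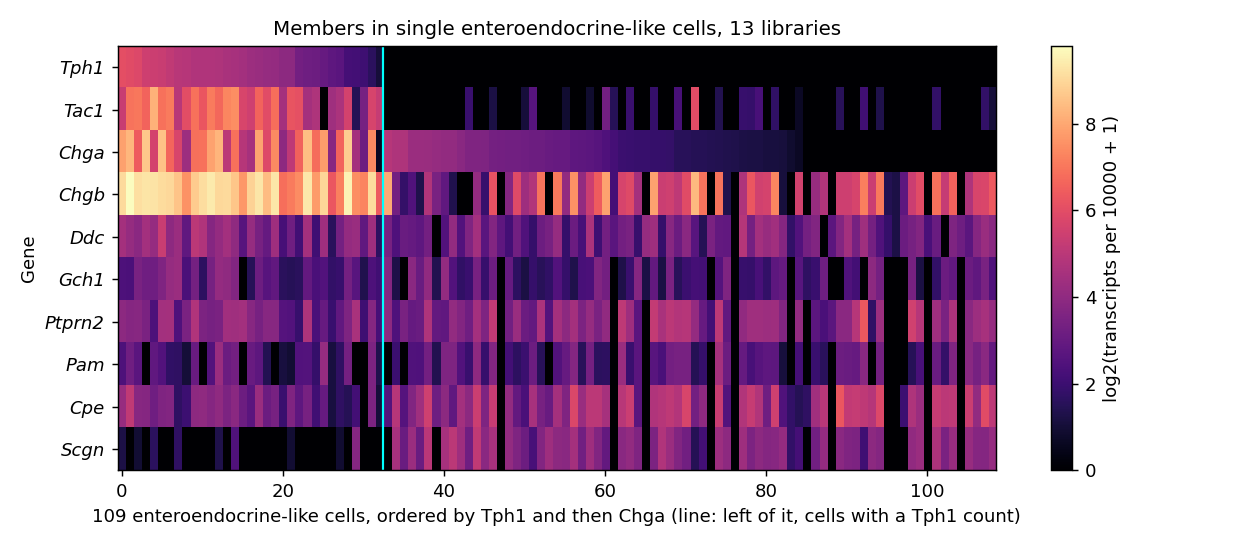
Level of the 10 genes (colour, transcripts per 10000 on a log scale) in each of the 109 enteroendocrine-like cells, ordered by Tph1 and then Chga. The line follows the 33 cells with Tph1; Tac1, Chga and Chgb are high to its left and Scgn to its right.

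Of 16 genes in a list for amine synthesis, transport and its regulators, 5 were higher with Tph1 in 5 of 5 libraries (Slc18a1, Lmx1a, Fev, Trpa1 and Qdpr) and 1 was lower in 5 of 5 (Maoa, which encodes a monoamine-degrading oxidase, at 45.3 and 76.5 CPM). The other 10 had mixed directions or libraries at 0 on both sides. The share of all genes with 1 direction in 5 of 5 libraries was not counted, so these counts are a description. Slc18a1, a vesicular monoamine transporter, stood at 418 CPM with Tph1 and 76.2 without, and Slc18a2, the other such transporter, at 167 and 0. Lmx1a stood at 447 and 2.1 CPM and Fev, a transcription factor gene of serotonin neurons, at 617 and 364. Qdpr, which recycles the cofactor, stood at 549 and 292 CPM and Pcbd1, which also takes part in its recycling, at 265 and 263. Trpa1 stood at 481 and 4.1 CPM. Slc18a2, named after its values were seen, was higher with Tph1 in 4 of 5 libraries. Among granule genes, Rab3c (637 and 14.4 CPM), which encodes a vesicle GTPase, and the convertase gene Pcsk1 (472 and 157) were higher with Tph1 in 5 of 5, while Scg2, a secretogranin gene, had 0 counts with Tph1 and 537 CPM without. Rab3b and Rims2 were higher in 5 of 5 too, and Syt7 and Cadps, like Scg2, were lower in 5 of 5. Cplx2 (333 and 403 CPM), Cacna1a (266 and 400), Rab3d (239 and 312) and Scg5 (208 and 303) were closer between the cells. The hormone genes Gip (56.6 and 24342 CPM), Cck (145 and 5593) and Ghrl (22.6 and 5575) were lower with Tph1 in 5 of 5, as was Gcg, which had 0 counts with Tph1 and 3808 CPM without. Sst stood at 7.5 and 5564 CPM and Sct at 799 and 2149.

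Traced and non-traced CD24+ cells of 8 weeks were compared first over all cells, which asks whether marked and control cells differed in these genes. Chga rose. It stood at 719, 1629 and 1020 CPM in the traced libraries and at 196 and 485 CPM in the non-traced. The groups did not overlap, with means of 1123 ± 464 CPM (SD, n = 3) and 341 ± 204 (SD, n = 2). The log2 difference was 1.71 (SE 0.37, adjusted p = 0.0236, edgeR quasi-likelihood test with Benjamini-Hochberg adjustment over 8762 genes). In this comparison 4.23% of all genes tested passed (1.56% higher and 2.67% lower in traced cells), and 1 of the 10 did; 8 of the 10 were under 0.05 unadjusted, beside 18.1% of all genes. The median log2 difference of the 10 was -0.04 and that of all genes 0.01.

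The call for Chga was lost with DESeq2 (adjusted p = 0.128), without non-traced replicate 1 (log2 1.18, adjusted p = 0.233 with edgeR) and in the cells outside the enteroendocrine-like class (log2 0.77, adjusted p = 0.212 with edgeR). In a combined table of the authors, the set names of 3 of these libraries carry the letters II. Those of both replicates 1 do not, which may or may not mark a batch. The names of traced replicates 2 and 3 end in II1 and II2 and are otherwise the same. Whether these are parts of 1 preparation the labels do not say. Between the libraries without II the log2 ratio of Chga was 1.87, and among those with II 1.45; each division holds 1 non-traced library and allows no test. In sums over all cells, fewer cells of a type and less RNA per cell cannot be told apart. Marker lists of other cell types moved with the groups: 10 of 11 tuft markers tested fell, 5 of 12 stem cell markers and 3 of 14 proliferation markers rose, and their part in these values was not tested.

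Of the other 9 genes, 0 passed with edgeR in all cells as first tested, with 7 of them under 0.05 unadjusted, and 0 with DESeq2. Tph1 stood at 143, 201 and 72.7 CPM in the traced libraries and 48.1 and 86.7 in the non-traced, which overlap (log2 1.06, SE 0.34, adjusted p = 0.117, edgeR). Leaving out traced replicate 3, whose Tph1 was the lowest of the 3, gave a log2 difference of 1.33 and an adjusted p of 0.0225 with edgeR. Tac1 stood at 472, 436 and 373 against 284 and 333 CPM (log2 0.47, adjusted p = 0.148, edgeR) and Chgb at 2466, 4004 and 2464 against 1849 and 2262 CPM (log2 0.52, adjusted p = 0.196, edgeR). The traced libraries were higher for both without overlap. In all, 3 of the 10 genes were higher and 3 lower in traced libraries without overlap, beside 33.8% of all genes (16.8% higher and 17% lower). Cpe was the reverse, at 91.4, 277 and 225 against 430 and 314 CPM (log2 -0.96, adjusted p = 0.136, edgeR). Ptprn2 (-0.51), Pam (-0.64) and Scgn (-0.73) had negative and Ddc (0.03) and Gch1 (-0.10) near-zero log2 differences, with adjusted p from 0.0889 to 0.958 with edgeR.

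**Figure D4:**
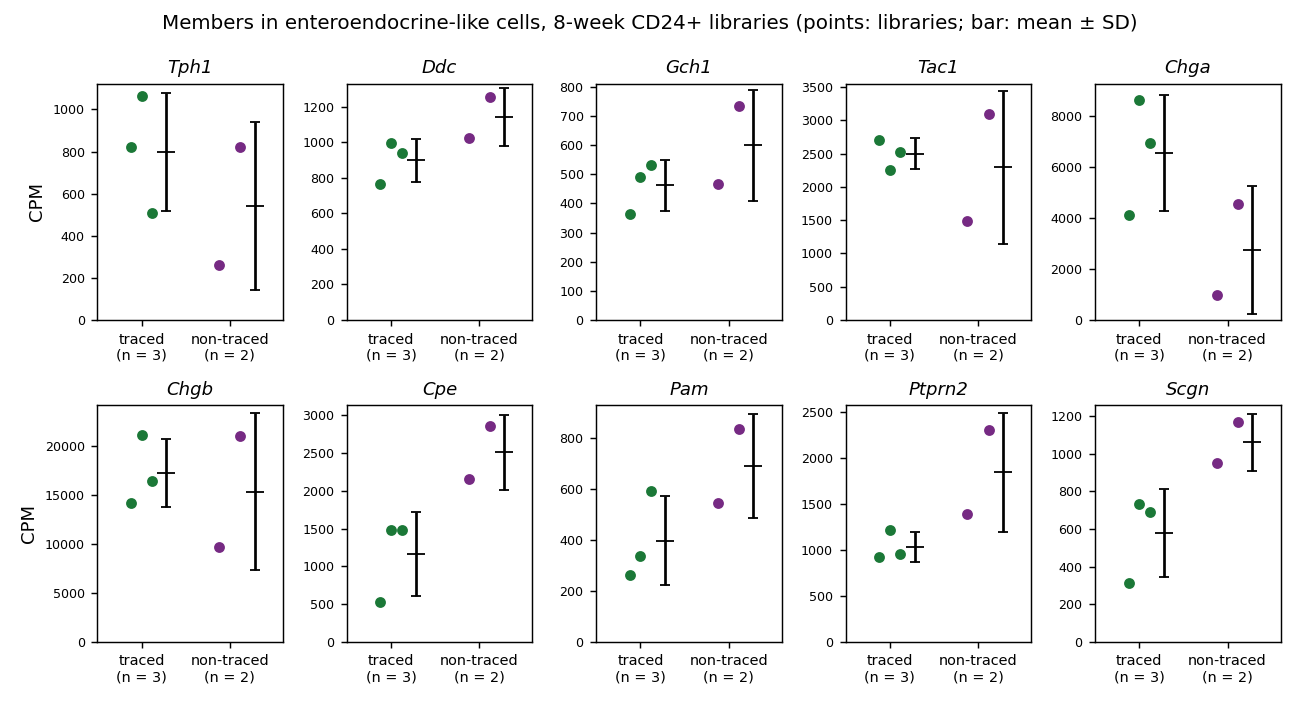
Level (CPM in enteroendocrine-like cells) of each of the 10 genes in the 3 traced and 2 non-traced CD24+ libraries of 8 weeks. Points are libraries, bars the mean and SD. Chga runs from 4133 to 8641 CPM in traced and from 984 to 4543 in non-traced libraries, which overlap, and Tph1 overlaps too.

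Genes around the 10 were taken from 3 lists. Of 13 genes tested in the amine list, Aldh2, an aldehyde dehydrogenase gene, fell (log2 -0.98, adjusted p = 0.00697, edgeR) and 0 rose. Aldh2 is among the 10 leading genes of both tuft-like clusters, and 10 of 11 tuft markers fell in the same comparison. In enteroendocrine-like cells, where it had too few counts for the test, Aldh2 stood at 81.5 ± 7.77 CPM (SD, n = 3) in traced and 53.7 ± 3.29 (SD, n = 2) in non-traced libraries. The part of either class of cells in the fall of Aldh2 was not tested. Of 19 granule and exocytosis genes Scg3 (log2 -1.50, adjusted p = 0.0437, edgeR) and Vamp2 (log2 -1.50, adjusted p = 0.0210, edgeR) fell and 0 rose. Of 8 gut hormone genes Sct, which encodes secretin, fell (log2 -1.30, adjusted p = 0.0154, edgeR) and 0 rose. The median log2 differences were 0.20, -0.61 and -1.26, beside 0.01 for all genes.

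Within enteroendocrine-like cells, 0 of the 10 genes passed with edgeR and 0 with DESeq2, in a comparison in which 5 of 3092 genes (0.162%) passed with edgeR, 0.129% higher and 0.0323% lower in traced cells. Unadjusted, 4 of the 10 were under 0.05 with edgeR (8.31% of all genes). Chga stood at 4133, 8641 and 6957 CPM in the traced libraries and 984 and 4543 in the non-traced. The groups overlapped, at 6577 ± 2278 CPM (SD, n = 3) and 2763 ± 2517 (SD, n = 2), with a log2 difference of 1.29 (SE 0.59, adjusted p = 0.591, edgeR). Cpe stood at 525, 1482 and 1479 CPM in the traced libraries and 2159 and 2861 in the non-traced. Its groups did not overlap, and the log2 difference was -1.10 (SE 0.41, adjusted p = 0.489, edgeR). Scgn stood at 311, 733 and 690 against 953 and 1168 CPM (log2 -0.87, adjusted p = 0.552, edgeR), and Ptprn2 at 923, 1223 and 955 against 1388 and 2305 CPM (log2 -0.81, adjusted p = 0.519, edgeR). Both were lower in traced libraries without overlap. With Ddc, 4 of the 10 did not overlap between groups, all lower in traced libraries, beside 25.5% of all genes tested (12% higher and 13.6% lower).

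Tph1 within these cells overlapped between groups, at 820, 1064 and 507 CPM in the traced libraries and 261 and 823 in the non-traced (log2 0.66, SE 0.45, adjusted p = 0.762, edgeR). So did Tac1 (2711, 2252 and 2531 against 1485 and 3102 CPM, log2 0.16, adjusted p = 0.951, edgeR) and Chgb (14223, 21113 and 16414 against 9692 and 21013 CPM, log2 0.19, adjusted p = 0.961, edgeR). Non-traced replicate 1 was the lowest library for these 3 genes and for Chga. Ddc (-0.33), Gch1 (-0.34) and Pam (-0.77) had negative log2 differences with adjusted p from 0.591 to 0.828 (edgeR). The median of the 10 was -0.33 and that of all genes 0.03. None of the 10 amine, 16 granule and 8 hormone genes tested passed with edgeR, with 1, 5 and 5 under 0.05 unadjusted and medians of 0.25, -0.74 and -1.50.

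The libraries with and without II in their set names gave different sizes. Between those without, the log2 ratio of traced to non-traced cells of the class was 2.07 for Chga, -2.04 for Cpe and -1.61 for Scgn; among those with II it was 0.78, -0.95 and -0.71. For Tph1 the 2 ratios were 1.65 and -0.07, and for Tac1 0.87 and -0.38. With this division as a block, whose meaning the labels do not give, 69 of the 3092 genes tested passed with edgeR, beside 5 without the block. Among them were Chga (log2 1.33, adjusted p = 0.0110), Cpe (-1.41, 0.00407), Scgn (-1.10, 0.0140) and Ptprn2 (-0.84, adjusted p = 0.0359, all edgeR). Without non-traced replicate 2, which leaves 1 non-traced library, the log2 difference of Chga was 2.75.

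Different clusters held most of the class in the groups. In the traced libraries 19, 14 and 12 cells lay in the larger, Neurod1-led cluster and 2, 5 and 5 in the hormone-led one. In the non-traced libraries 7 and 5 lay in the larger and 12 and 7 in the hormone-led cluster. The endocrine marker list summed to 111 to 369 transcripts per 10000 in the traced and 511 to 781 in the non-traced libraries. Of its 26 markers, 23 to 25 and 24 to 26 were detected, with Nts at 0 in every traced library. Gip alone made 251 and 498 of the sums in the non-traced libraries and 137 and 96.7 in traced replicates 2 and 3. In traced replicate 1 the most abundant marker was Cck (26.9). The 24 endocrine markers tested had a median log2 difference of -0.67 (edgeR). Neurog3, the gene for the factor that starts the endocrine fate, was 1 of the 5 genes called (767 ± 187 against 74.7 ± 46.2 CPM, SD, n = 3 and 2; log2 3.16, adjusted p = 0.0123, edgeR). Proliferation markers summed to 7.56 to 17.4 per 10000 in the traced and 1.54 to 4.62 in the non-traced libraries without overlap, and 1 of the 5 tested (Ube2c) passed, with 4 under 0.05 unadjusted and a median log2 difference of 2.25 (edgeR). Tuft markers summed to 0.43 to 0.67 and 0.79 to 0.98, and Paneth markers to 48.4 to 57.5 and 45.5 to 71.2. The part of these differences in the members' values was not tested.

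**Figure D5:**
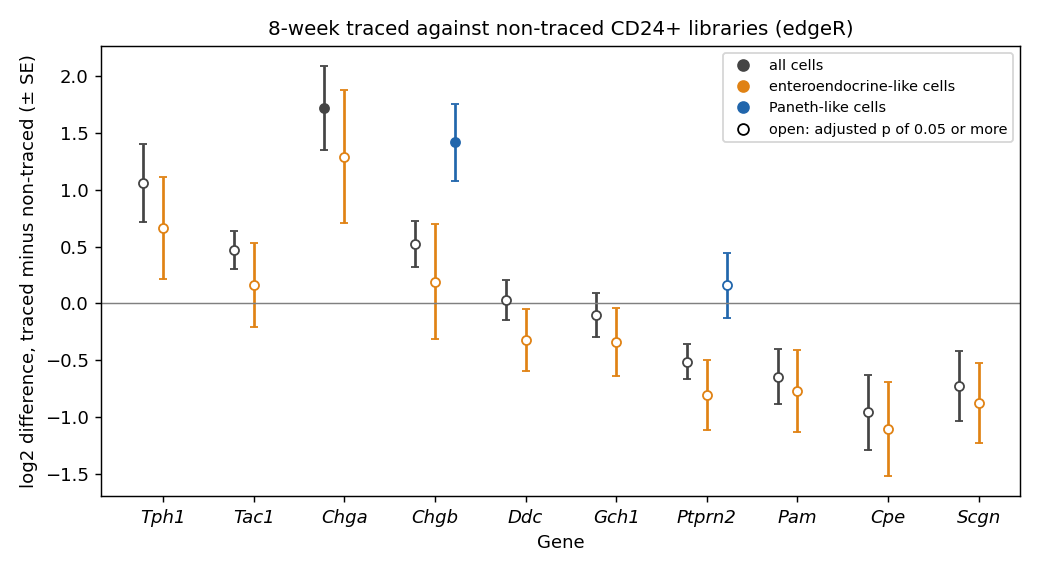
Log2 difference between traced and non-traced CD24+ libraries of 8 weeks (points, bars ± 1 SE) for each gene tested in all cells, enteroendocrine-like cells and Paneth-like cells; filled points passed at adjusted p under 0.05. Chga in all cells (1.71) and Chgb in Paneth-like cells (1.42) passed.

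The share of enteroendocrine-like cells that held Tph1 was higher in each traced library, without reaching significance. It was 42.9% (9 of 21 thinned cells), 36.8% (7 of 19) and 29.4% (5 of 17) in the traced libraries and 15.8% (3 of 19) and 16.7% (2 of 12) in the non-traced. The exact 95% binomial intervals of the lowest traced and the highest non-traced share, 10.3% to 56% and 2.09% to 48.4%, overlap widely. The means were 36.4% ± 6.74 (SD, n = 3) and 16.2% ± 0.62 (SD, n = 2), a difference of 20.1 percentage points. An exact permutation test (two-sided) gave p = 0.2, and no smaller p is possible with 3 and 2 libraries. Within the larger cluster alone the difference was 10.3 points (44.6% ± 4.69, n = 3, and 34.3% ± 8.08, n = 2), again with p = 0.2 in the exact permutation test.

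In Paneth-like cells, 2 of the 10 genes had enough counts to be tested, and Chgb rose; 1.59% of 2764 genes passed with edgeR (0.47% higher and 1.12% lower), and 10.3% were under 0.05 unadjusted. Chgb stood at 136, 112 and 162 CPM in the traced libraries and 42.1 and 85 in the non-traced. The groups did not overlap, at 137 ± 24.9 CPM (SD, n = 3) and 63.5 ± 30.3 (SD, n = 2), with a log2 difference of 1.42 (SE 0.34, adjusted p = 0.0137, edgeR). The call was lost without traced replicate 1 (adjusted p = 0.0665), traced replicate 3 (adjusted p = 0.281) or non-traced replicate 1 (adjusted p = 0.630, all edgeR). Of all genes tested, 27% did not overlap between the groups, 4.85% higher and 22.1% lower in traced libraries. Ptprn2 stood at 183, 144 and 144 against 179 and 152 CPM (log2 0.16, SE 0.29, adjusted p = 0.919, edgeR), and its groups overlapped.

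The level of Chgb in Paneth-like cells is small beside that in endocrine cells, and 1 of 84 Paneth-like cells held 10 or more counts of Chgb, Chga and Tac1 together. Chgb in tuft-like cells took 113, 244 and 201 CPM in the traced and 42.8 and 123 CPM in the non-traced libraries. Chga, which had too few counts in Paneth-like cells for the test, stood at 32.1, 20.4 and 26.1 against 9.70 and 13.4 CPM. The 26 endocrine markers summed in Paneth-like cells to 1.75 to 3.79 per 10000 in the traced libraries (9 to 13 detected) and to 4.62 to 7.38 in the non-traced (12 to 14 detected). The most abundant of them was the hormone gene Gip in non-traced replicate 1 and the hormone gene Sct in each other library. Other lists separated the groups without overlap too: goblet markers summed to 253 to 416 in the traced and 471 to 527 in the non-traced libraries, enterocyte markers to 4.1 to 15.8 and 17.7 to 44.6, tuft markers to 0.46 to 0.92 and 1.29 to 1.34, and Paneth markers to 3438 to 4587 and 3094 to 3360. Their part in the value of Chgb was not tested. Markers at 0 in every traced library included Isl1, Lmx1a, Nts, Pax4, Pcsk1n, Resp18, Rfx6 and Vgf, and those at 0 in every non-traced library Insm1, Lmx1a, Neurog3, Pax4, Pax6, Pcsk1n, Rfx6 and Vgf. Without the cell with 10 or more counts, an alternative chosen after seeing the data, the log2 difference of Chgb was 1.28 (adjusted p = 0.0494, edgeR).

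The other times are described without a test, since gate, time or sex of the mice differ from the CD24+ groups of 8 weeks. Over all cells of the 5-day libraries, Chga had a lowest, median and highest level of 5.11, 67.8 and 120 CPM, Tph1 of 1.28, 29.7 and 56.6, Tac1 of 5.11, 72.1 and 179 and Chgb of 71.3, 259 and 779. Ddc varied least for its level, at 93.2, 108 and 123 CPM. Cpe stood at 6.54, 27.1 and 46.6 CPM and Scgn at 0, 5.12 and 14.2. Replicate 4, which stands apart, was the median library for Chga, Tph1, Tac1 and Chgb, the lowest for Ddc (the next was 104 CPM) and the highest for Cpe and Scgn (the next were 43.7 and 9.94 CPM). These libraries had no CD24 gate and 6 enteroendocrine-like cells in all, of which 5 held Tph1. In the 21 Paneth-like cells of the 5-day libraries Ptprn2 stood at 52.3 ± 17.4 CPM (SD, n = 5), from 19 counts in all. Replicates 1 and 4 held 1 and 2 of these cells. In the 3 Paneth-like cells of the ungated 8-week library it stood at 141 CPM, from 8 counts.

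At 3 weeks Tph1 had 0 counts in all 50 and 62 kept cells of the 2 libraries, so none of their 10 enteroendocrine-like cells held it. The 8 such cells of the traced library had 214 CPM of Chga, 8496 of Chgb, 883 of Tac1, 1763 of Cpe and 865 of Scgn. The 2 cells of the library labelled non-traced had 995 CPM of Chga and 2622 of Chgb. Exact 95% intervals for the share with Tph1 reach 36.9% and 84.2% at these numbers, so its absence from the 3-week endocrine cells cannot be read from them.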

How the data were processed

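Single cells from 13 CEL-seq libraries, a method that tags 3′ ends of transcripts with cell and molecular barcodes, were analysed. The authors deposited expected counts of transcripts. Read from the values, whole numbers of molecular barcodes had been corrected for collisions among 256 barcodes (tolerance 1e-09), and 145 values were saturated at 1597, none of them of the 10 genes. BWA 0.6.2-r126 and the mm10 genome come from the submitters' processing notes; gene models and strand handling are not given in the sources used here, so reads of antisense or overlapping genes may be included.

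Cells with fewer than 3000 transcripts without spike-ins were removed (356 of 1248). The combined table of 672 cells in 7 sets repeats libraries and was used only for its set names. These names carry the letters II for 3 of the 8-week CD24+ libraries and not for replicate 1 of either group. No label calls this a batch, and it was used as a possible one. Traced replicates 2 and 3, named with II1 and II2, were each counted as a replicate, although they may be parts of 1 preparation. Clusters were found without the 10 genes, at resolution 1 of leidenalg 0.10.2 within scanpy 1.11.5, from 10 neighbours in 30 principal components of 2000 variable genes. A cluster took a marker list's name if 1 marker was among its top 10 genes and 3 or more were raised by 0.25 (log2 of transcripts per 10000, pseudocount 1); a cluster with no marker there took the only list with at least as many markers raised as not; a cluster drawn to more than 85% from a single library got no name. These naming rules were set after the data had been seen, in 3 versions that gave the same 109 cells. No doublet detection was run. The 10 genes and all lists were chosen with earlier results of these data known.

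Counts were summed per library, rounded and tested with edgeR 4.0.16 in R 4.3.3 (TMM, filterByExpr, quasi-likelihood F test, Benjamini-Hochberg threshold 0.05), the library being the replicate, on the 3 traced and 2 non-traced CD24+ libraries of 8 weeks. CPM is counts per 1000000 summed transcripts. Detection shares used cells thinned to 3000 transcripts (5 shallower cells left out). Intervals are exact Poisson or binomial at 95%. Named genes were the 10 members, the 5 genes most like Tph1 and Chga among genes in at least 10% of cells, and, of the 3 lists around them, the genes that passed and the 6 with the highest level in enteroendocrine-like cells. Slc18a2, Neurog3, Rab3b, Rims2, Syt7 and Cadps were named after their values were seen. On simulated data edgeR recovered, for log2 changes of 1 and 2, 55% and 98% of 100 changed genes each in all cells (8762 genes), 25% and 99% in enteroendocrine-like cells (3092) and 45% and 98% in Paneth-like cells (2764). It also called 6, 5 and 7 unchanged genes in these comparisons. The simulation gave each gene the spread usual for its level, so genes that vary more between libraries may be recovered less often. Alternatives were DESeq2 1.42.0, no filter, blocks, each library left out, other depth limits and other clusterings.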

Additional observations from a re-analysis of the deposited data

How the results depend on the processing

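The number of genes called over all cells was 371. It was 200 with DESeq2, 811 without the filter on low counts and 55 to 344 with 1 library left out (55 and 153 without non-traced replicates 1 and 2, and 148 without the first traced replicate). In enteroendocrine-like cells it was 5, and 10 with DESeq2, 65 without the filter, 8 and 9 with limits of 1500 and 5000 transcripts, 3 in the larger cluster (an alternative chosen after seeing the data) and 3 to 23 with 1 library left out (3 without traced replicate 2, 13 and 23 without non-traced replicates 1 and 2). In Paneth-like cells it was 44, and 11 with DESeq2 and 0 to 62 with 1 library left out: 13 without traced replicate 1 and 0 without traced replicate 3 (edgeR, 240 genes under 0.05 unadjusted). With the II of the set names as a block it was 69 in enteroendocrine-like and 78 in Paneth-like cells. The cause was not tested.

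Equal replicate numbers are shared by 2 pairs only and were not taken to pair the libraries. Correlations of their deviations from the group means were 0.09 and 0.13 in all cells, 0.34 and 0.28 in enteroendocrine-like and 0.09 and 0.07 in Paneth-like cells. The deviations of the 2 non-traced libraries mirror each other, so these correlations cannot show whether the libraries are paired. The fit with the replicate number as a block, without traced replicate 3, called 138 genes in enteroendocrine-like cells, Tph1 (log2 1.05), Chga (1.52), Cpe (-1.47), Pam (-1.14), Ptprn2 (-0.72) and Scgn (-1.13) among them. In all cells it kept Chga (1.77) and also called Tph1 (1.35) and Pam (-0.93), and in Paneth-like cells 0 genes (edgeR, 224 under 0.05 unadjusted), Chgb having an adjusted p of 0.576.

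Signs reversed only for differences that did not pass. Ddc in all cells had log2 differences from -0.14 to 0.24 with 1 library left out, below 0 without traced replicate 2 or non-traced replicate 2, and -0.15 at 5000 transcripts. In enteroendocrine-like cells, leaving out 1 library gave -0.023 to 1.62 for Tph1, -0.28 to 0.76 for Tac1 and -0.26 to 0.84 for Chgb, each lowest without non-traced replicate 1 and highest without non-traced replicate 2. In the larger cluster it was -0.25 for Tph1, 0.051 for Ddc, -0.70 for Tac1 and -0.23 for Chgb, and at 5000 transcripts -0.014 for Chgb. Ptprn2 in Paneth-like cells had -0.061 to 0.34, below 0 without the first traced or the second non-traced library. Of differences in all cells that had not passed, those of Tph1, Chgb, Cpe and Scgn passed without the filter, Pam without traced replicate 3 and at 5000 transcripts, and Cpe in cells outside the enteroendocrine-like class (log2 -2.12), an alternative chosen after seeing the data.

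The difference in the share of cells with Tph1 was 16.9 to 23.6 points with 1 library left out. It was -2.94 points at resolution 2, and -2.94 points with the 10 genes kept among the clustering genes, when the second naming step was left out, since the cluster with nearly all Tph1 cells (31 and 32 cells) then had no name. With 31 non-traced and 57 traced endocrine cells, depth and cell number limit what can be seen of Tph1.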
